A study of Caenorhabditis elegans with 13 samples.

Results

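The mir-51 family of Caenorhabditis elegans comprises 6 microRNA (miRNA) genes, mir-51 to mir-56, which were followed here in small RNA libraries from ageing adults on 3 feeding regimens. Each hairpin yields 2 arms, and the one with more reads over the 13 libraries together stood for the gene, which gave cel-miR-51-5p, cel-miR-52-5p, cel-miR-53-5p, cel-miR-54-3p, cel-miR-55-3p and cel-miR-56-3p, 6 of the 434 mature miRNAs counted. The opposite arms of the same hairpins were kept as a separate set of 6. The animals were whole worms of the N2 laboratory strain, with no other allele named in the labels. They were kept under IF (adult days 4, 6, 8 and 10), under CR (days 4, 6, 8 and 10) or fed ad libitum, AL (days 2, 4, 6, 8 and 10). The labels abbreviate IF and CR without giving either protocol, and 1 library was sequenced for each diet and day. The labels do not say whether the libraries came from separate cultures. Every p-value below therefore sets an effect against the spread that its own fit leaves between these libraries. That fit held diet and day as factors unless stated otherwise. Whole-worm RNA cannot tell fewer cells of a type from less RNA per cell.

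A miRNA guides an Argonaute protein to messenger RNAs that pair with its seed, the bases near its 5′ end, and members of a family share that seed. The mir-51 family is the worm branch of the deeply conserved miR-100 group and is expressed in most tissues of the worm. Worms that lack all 6 genes die as embryos with a pharynx that fails to attach, whereas most single mutants look healthy, and together with the mir-35 family of oocytes and embryos these miRNAs sustain early patterning of the embryo. Mature miR-52-5p and miR-53-5p are close to identical, so the split of reads between them depends on the mapping, which is not given in the sources used here.

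The 6 genes lie at 3 places in the genome (WBcel235). Hairpin mir-51 is at chromosome IV, 11026013 to 11026112, and mir-53 at 11027593 to 11027691, both on the minus strand and 1480 bp apart, between protein-coding genes. The plus-strand hairpin mir-52 is also intergenic, at chromosome IV, 14034008 to 14034107, and its nearest protein-coding gene, Y37A1B.7, is 8487 bp away. The other 3 form a tight minus-strand cluster on chromosome X, opposite to an intron of F09A5.3. In that cluster mir-54 spans 13144996 to 13145094, mir-55 spans 13144827 to 13144924 and mir-56 spans 13144691 to 13144787, with gaps of 71 and 39 bp. The arms divide by chromosome as well, the 5p arm having more reads in the 3 genes on IV and the 3p arm in the 3 genes on X.

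Library totals were 2639586 to 4128030 miRNA reads in IF, 2882741 to 4000827 in CR and 3174231 to 5143918 in AL. Levels are given as CPM, counts scaled to a common library size by the trimmed mean of M values (TMM), in which each read of a mature miRNA counts once, so no correction for length applies. The day 8 libraries stood apart in every diet. Their TMM factors were 0.679 in IF, 0.704 in CR and 0.475 in AL, the lowest of each diet, and their most abundant miRNA was miR-48-5p, a let-7 relative, in place of miR-58a-3p, which led in 9 of the other 10 libraries. Muscle miR-1-3p reached 57929 to 94782 CPM on day 8 and 2288 to 22414 CPM on the other days. The summed level of 5 tissue markers was 58015, 88874 and 94910 CPM in the IF, CR and AL libraries of day 8 and 2666 to 23144 CPM in the other 10, most of it miR-1-3p. Of the neuronal markers, miR-124-3p had 0 to 25 reads, with 0 in 1 library, and lsy-6-3p 2 to 14. Several results that rest on day 8 are therefore also given without it, and the others include it. The part of these shifts in the results below was not tested.

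The family as a whole made up a larger part of the library in IF than in CR or AL and the smallest part on day 8. Its members summed to 4.59%, 7.24%, 2.03% and 3.01% of the reads on days 4, 6, 8 and 10 in IF. In CR they summed to 2.69%, 5.69%, 0.877% and 1.90% on the same days. In AL they summed to 3.21% on day 2 and to 1.66%, 5.43%, 0.461% and 1.35% on days 4, 6, 8 and 10. On every shared day the order was IF, then CR, then AL, and the widest 95% Wilson interval of these shares, which covers counting error only, spanned 0.0568 percentage points. A share also depends on the rest of its library. The reads of miR-58a-3p alone were 36.0%, 47.5% and 66.5% of the total on day 4 in IF, CR and AL. On day 10 they were 41.1%, 37.9% and 48.5%. The part of this in the order was not tested.

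After scaling, the family total was 47510, 44382, 29833 and 20364 CPM on days 4 to 10 in IF. CR libraries held 23990, 36374, 12450 and 16793 CPM, and AL libraries 23811, 35264, 9717 and 15519 CPM on these days, with 31601 CPM on AL day 2. On this scale day 8 was the lowest day in CR and AL, and day 10 in IF. The ranges of the diets overlapped, with means over days 4 to 10 of 35522 ± 12706 CPM in IF, 22402 ± 10460 CPM in CR and 21078 ± 11086 CPM in AL (SD, n = 4 days each). Day by day, the log2 difference between IF and AL was 1.0, 0.33, 1.62 and 0.39, above 0 on 4 of 4 days. The corresponding difference between CR and AL was 0.01, 0.04, 0.36 and 0.11, also above 0 on each day but smaller than that of IF each time. Since the AL libraries serve in both differences, the 2 series are not independent.

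**Figure D1:**
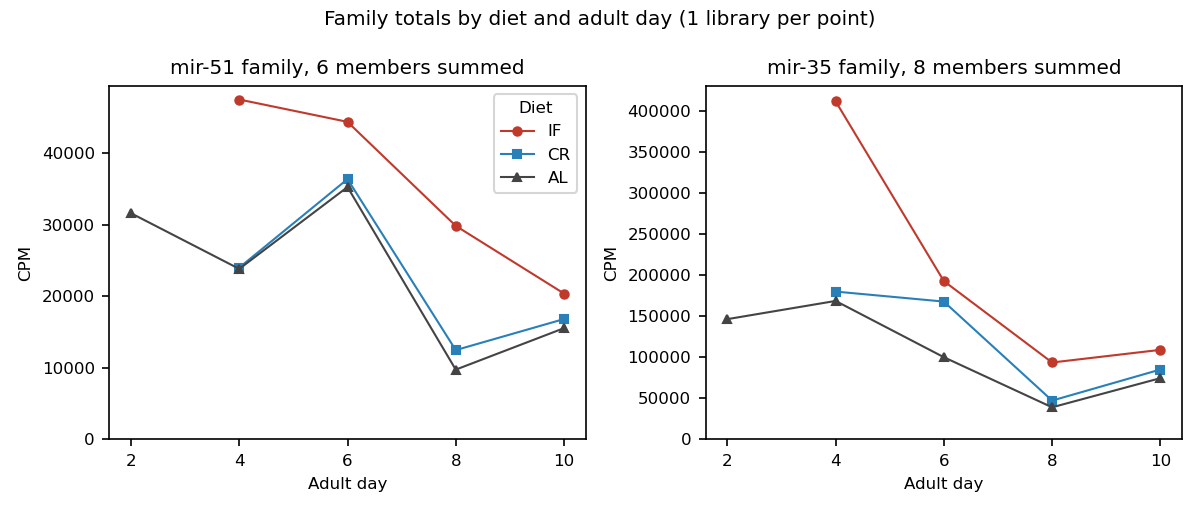
Summed CPM of the 6 mir-51 family members (left) and of the 8 mir-35 family members (right) against adult day, with 1 library per point and 1 line per diet. In the left panel IF lies above CR and AL on each shared day, and the IF, CR and AL totals of day 8 are 29833, 12450 and 9717 CPM.

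The members were not equally abundant. Over the 13 libraries, miR-52-5p was the most abundant by its median, 9657 CPM, with a range of 2188 to 31894. It was followed by miR-55-3p with a median of 6652 CPM (2490 to 15413) and miR-56-3p with a median of 3523 CPM (1405 to 12334). These 3 together supplied 88.2% to 96.0% of the family's reads in the 10 libraries of days 2, 4, 6 and 10 and 57.9% to 69.2% on day 8. The remaining members were scarcer, with medians of 961 CPM for miR-51-5p (332 to 11948), 447 CPM for miR-53-5p (184 to 799) and 408 CPM for miR-54-3p (215 to 1227). Ranges of neighbours in this order overlapped throughout. How efficiently each miRNA enters a library was not measured, so the order compares reads.

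**Figure D2:**
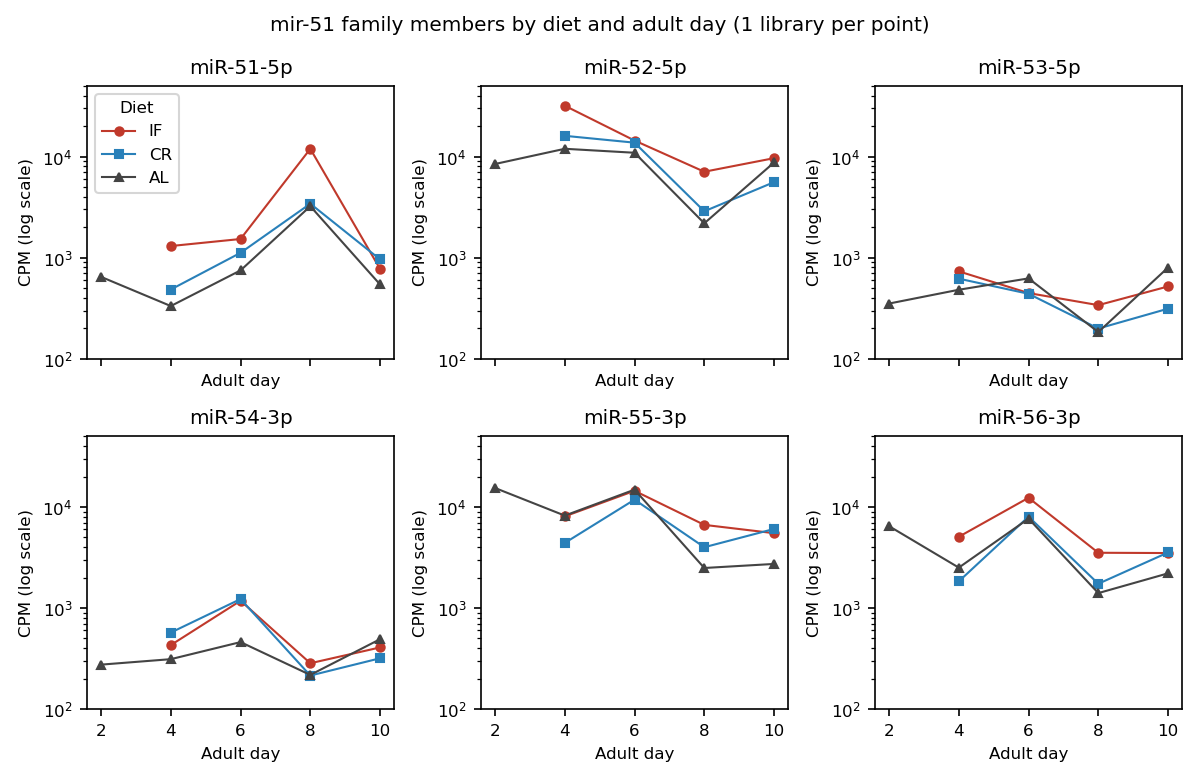
CPM on a log scale against adult day for each of the 6 members, with 1 library per point and 1 line per diet. On day 8 miR-51-5p stands at its highest value of each diet, 11948, 3422 and 3232 CPM in IF, CR and AL, while miR-52-5p stands at its lowest.

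Among the genes on chromosome IV, miR-51-5p was the member whose level moved most. It had 1304, 1531, 11948 and 774 CPM on days 4, 6, 8 and 10 in IF. In CR it had 484, 1117, 3422 and 961 CPM, and in AL 332, 749, 3232 and 543 CPM, with 646 CPM on AL day 2. The 3 day 8 libraries lay above all 9 libraries of days 4, 6 and 10, whose highest value was 1531 CPM. As a percentage of all reads, without TMM, this separation was not complete. Day 8 then stood at 0.153% in AL and 0.241% in CR, below the 0.250% of IF day 6. A miRNA was called changed in what follows when edgeR's quasi-likelihood test gave a Benjamini-Hochberg adjusted p under 0.05 over all miRNAs tested. Day 8 exceeded day 4 by a log2 difference of 3.12 ± 0.45 (SE), with an edgeR adjusted p of 5.71e-05, and was higher in 3 of 3 diets. The call was kept under 8 alternative settings, with log2 differences of 2.35 to 3.13, and with any of the 12 libraries left out, at 2.75 to 3.44. Differences of day 6 (0.86 ± 0.42, edgeR adjusted p 0.153) and of day 10 (0.38 ± 0.43, edgeR adjusted p 0.569) from day 4 did not pass.

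The most abundant member, miR-52-5p, went the other way on day 8. It had 31894, 14434, 7086 and 9657 CPM on days 4, 6, 8 and 10 in IF. In CR it had 16068, 13745, 2878 and 5592 CPM, and in AL 11959, 10922, 2188 and 8750 CPM, with 8455 CPM on AL day 2. Each diet had its highest level on day 4 and its lowest on day 8, although the day 8 level of IF exceeded that of CR on day 10. Compared with day 4 it fell by 2.36 ± 0.42 on the log2 scale on day 8 (edgeR adjusted p 0.000277) and by 1.20 ± 0.41 on day 10 (edgeR adjusted p 0.0333). The day 10 call was lost when AL day 6, CR day 4, CR day 10, IF day 4 or IF day 10 was left out, with edgeR adjusted p-values of 0.0517 to 0.184, and also under total counts, without the filter or without the diet term, the highest of these being 0.102.

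Its near-identical relative miR-53-5p, the chromosomal neighbour of mir-51, was about as scarce as miR-54-3p. It had 732, 447, 339 and 519 CPM on days 4, 6, 8 and 10 in IF. In CR it had 620, 439, 199 and 313 CPM, and in AL 482, 624, 184 and 799 CPM, with 352 CPM on AL day 2. Day 8 was the lowest day of every diet, with day 8 of IF above day 10 of CR. The fall of 1.39 ± 0.41 on the log2 scale between day 8 and day 4 passed (edgeR adjusted p 0.00989) but not without AL day 8, where it was -1.09 (edgeR adjusted p 0.0623). Summing its reads with those of miR-52-5p gave a log2 difference of -2.31 on day 8 (edgeR adjusted p 0.0003) and -1.16 on day 10 (edgeR adjusted p 0.0391). The sum does not depend on the split between them, unless the mapping counted a read for both. Per read of miR-53-5p there were 11.0 to 43.6 reads of miR-52-5p, so the sum mostly repeats miR-52-5p.

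The reads of mir-51 and mir-53, 1480 bp apart, thus did not keep a fixed proportion. Per read of miR-53-5p there were 17.2 to 35.2 reads of miR-51-5p on day 8 and 0.680 to 3.43 in the other 10 libraries. The number of miR-51-5p reads per read of miR-52-5p was 1.19 to 1.69 on day 8 and 0.0278 to 0.172 otherwise. As a share of the family, miR-51-5p took 40.05%, 27.5% and 33.3% in the IF, CR and AL libraries of day 8, against 1.40% to 5.72% in the other 10.

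**Figure D3:**
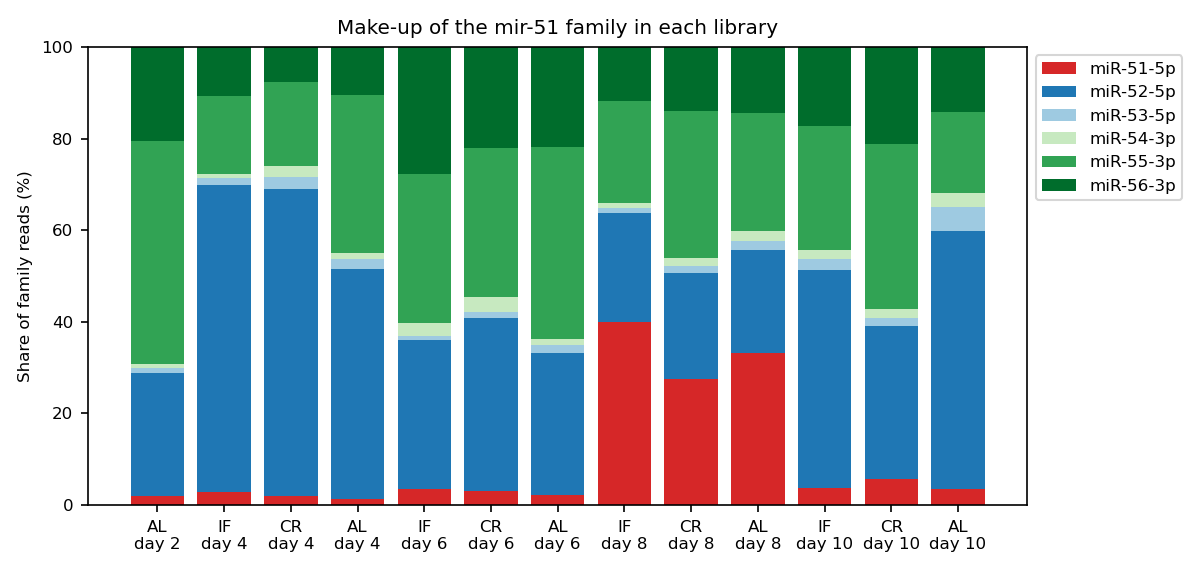
Stacked bars of the percentage of the family's reads that each of the 6 members supplied, with 1 bar per library, ordered by adult day and, within a day, IF, CR and AL. The share of miR-51-5p, at the bottom of each bar, is 27.5% to 40.05% on day 8 and at most 5.72% elsewhere.

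In the cluster on chromosome X, all 3 members were highest on day 6 in IF and in CR. The last hairpin of the cluster gave miR-56-3p, with 5071, 12334, 3523 and 3501 CPM on days 4, 6, 8 and 10 in IF. In CR it had 1837, 8023, 1739 and 3547 CPM, and in AL 2511, 7668, 1405 and 2205 CPM, with 6460 CPM on AL day 2. The 3 day 6 libraries held more miR-56-3p than any other library. It was the member called on day 6, with a log2 difference from day 4 of 1.64 ± 0.39 (edgeR adjusted p 0.00933), higher in 3 of 3 diets, and the call was kept with any 1 library left out but not without the diet term (edgeR adjusted p 0.0588).

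The middle hairpin gave miR-55-3p, with 8079, 14456, 6652 and 5505 CPM on days 4, 6, 8 and 10 in IF. In CR it had 4409, 11822, 3997 and 6062 CPM, and in AL 8216, 14843, 2490 and 2731 CPM, with its highest value of all, 15413 CPM, on AL day 2. Day 6 lay above day 4 in each diet, but the log2 difference of 1.0 ± 0.43 did not pass (edgeR adjusted p 0.106). The first hairpin gave miR-54-3p, with 430, 1181, 284 and 408 CPM on these days in IF, 572, 1227, 215 and 318 CPM in CR and 312, 460, 218 and 491 CPM in AL, and 275 CPM on AL day 2. Its day 8 libraries lay below all 9 of days 4, 6 and 10, but neither the difference of day 8 (-0.86 ± 0.42, edgeR adjusted p 0.0872) nor that of day 6 (1.09 ± 0.42, edgeR adjusted p 0.0789) from day 4 passed.

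Within the cluster, miR-55-3p and miR-56-3p kept the steadiest proportion. Per read of miR-56-3p there were 1.17 to 3.27 reads of miR-55-3p over the 13 libraries, the narrowest range of the 6 pairs of main arms compared. Their ratios to miR-54-3p varied more, with 5.56 to 56.0 reads of miR-55-3p and 3.21 to 23.5 reads of miR-56-3p per read of miR-54-3p, and outside day 8 these spans are wider than that of the pair on chromosome IV. The log2 levels of miR-55-3p and miR-56-3p correlated at a Pearson r of 0.90 over the 13 libraries (0.86 without the 3 of day 8), while miR-54-3p correlated at 0.44 with miR-55-3p (0.20 without day 8) and at 0.65 with miR-56-3p (0.49 without day 8). Members miR-52-5p and miR-53-5p followed with r = 0.85 (0.55 without day 8), whereas miR-51-5p and miR-53-5p stood at -0.60 (-0.16 without day 8). These coefficients describe libraries that share days, diets and scaling, and they carry no test.

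**Figure D4:**
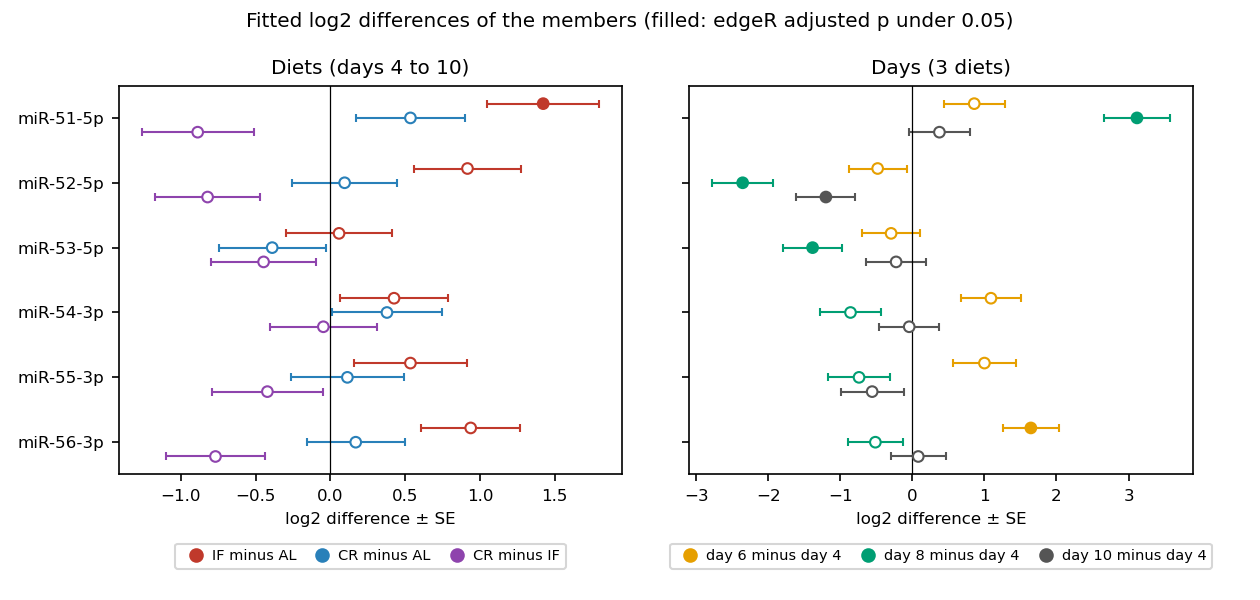
Fitted log2 differences of the 6 members with their SE as bars, between diets over days 4 to 10 (left) and between days over the 3 diets (right); filled points have an edgeR adjusted p under 0.05. The widest differences are those of day 8 minus day 4, from -2.36 for miR-52-5p to 3.12 for miR-51-5p.

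Calls were frequent between days over all miRNAs, not in the family alone. Between day 8 and day 4, 1 of the 6 members rose and 2 fell, where 34.9% of the 212 miRNAs tested rose and 25.5% fell. The members' median log2 difference was -0.80, beside 0.08 over all tested. Day 6 gave 1 member higher and 0 lower, with 7.55% of all miRNAs higher and 9.91% lower, and medians of 0.93 in the family and 0.14 overall. Day 10 gave 1 member lower, with 18.4% of all lower, and medians of -0.13 and 0.15. All 3 differences use the day 4 libraries. In CPM, complete separation of day 8 from the 9 libraries of days 4, 6 and 10 was also common. It put 19.3% of miRNAs above, miR-51-5p among them, and 12.7% below, miR-54-3p among them. Of the 5 tissue markers, 4 were called on day 8, muscle miR-1-3p (3.35) and neuronal miR-791-3p (2.02) upward and intestinal miR-60-3p (-1.66) and neuronal miR-124-3p (-2.52) downward, with edgeR adjusted p-values of 0.000277 to 0.00663, and their part in the family's differences was not tested.

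These counts moved with the scaling. Scaling by total counts moved the median difference of all miRNAs by -0.58 on day 8 and by 0.78 on day 6. Under it 49 miRNAs were called higher and 72 lower on day 8, against 74 and 54 with TMM, and all 6 members were called, miR-51-5p still upward and the other 5 downward. On day 6 the split was 84 higher and 9 lower, against 16 and 21, and miR-52-5p and miR-53-5p turned above 0, at 0.32 and 0.50. Without the 3 most abundant miRNAs in the total, the median moved by -0.78 on day 8, with 36 higher and 81 lower, and by 0.21 on day 6, with 25 higher and 15 lower. DESeq2 size factors moved it by -0.37 on day 8, with 58 higher and 66 lower, and by -0.25 on day 6, with 11 higher and 31 lower. On day 10 it moved by 0.30 under total counts, with 45 higher and 21 lower against 36 and 39 with TMM, by 0.14 without the top 3, with 37 and 26, and by -0.14 with size factors, with 35 and 40.

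No member had an age slope that passed the test. Slopes over the 13 libraries, in log2 units per day, were 0.27 ± 0.17 for miR-51-5p and -0.21 ± 0.11 for miR-55-3p at the extremes, and 0 of 6 passed (edgeR adjusted p 0.175 to 0.852), where 13.6% of the 214 miRNAs tested did. At an unadjusted p under 0.05 edgeR also counted 0 of the members, and DESeq2 and limma-voom called 0 of 6. Without day 8 the slope of miR-51-5p was -0.01. Slopes that differ between diets were called for 0 of 6 members (edgeR adjusted p 0.999 each) and for 0.0% of all miRNAs, with 1 miRNA at an unadjusted p under 0.05 in edgeR, 5 in DESeq2 and 1 in limma-voom, neither of which called any. Both slope fits took day as a number, without the replicate block, so shifts of single days shared by the diets stayed in their spread. The absence of calls therefore does not show that the courses were alike between diets.

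Between IF and AL, the fitted differences of all 6 members were above 0 and 1 was called. The called member was miR-51-5p, with a log2 difference of 1.42 ± 0.37 over days 4 to 10 (edgeR adjusted p 0.019), and IF exceeded AL on 4 of 4 days, by 1.97, 1.03, 1.89 and 0.51. The edgeR test called 8.49% of the miRNAs higher in IF. This call is narrow: leaving out AL day 4, AL day 6, AL day 8, IF day 4 or IF day 8 gave edgeR adjusted p-values of 0.0502 to 0.0897, and leaving out day 8 in all diets gave a difference of 1.19 with an edgeR adjusted p of 0.122. Without the day as a replicate block the difference was 1.68 with an edgeR adjusted p of 0.795, and no miRNA was called in the whole table.

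Other members differed less clearly. The differences of IF from AL were 0.94 ± 0.33 for miR-56-3p (edgeR adjusted p 0.067) and 0.92 ± 0.36 for miR-52-5p (edgeR adjusted p 0.0968), both with IF above AL on 4 of 4 days. Without day 8 in any diet they were 0.76 (edgeR adjusted p 0.277) and 0.63 (edgeR adjusted p 0.32). Each passed when 1 library was left out, miR-56-3p without IF day 10 (edgeR adjusted p 0.0461) and miR-52-5p without AL day 10 (edgeR adjusted p 0.0466), and DESeq2 called 3 members. Those 3 were the members with an unadjusted p under 0.05 in edgeR, a level reached by 31.1% of all miRNAs. The 3 members higher in IF on each day stand beside 19.3% of all miRNAs. Values for miR-55-3p (0.54), miR-54-3p (0.43) and miR-53-5p (0.06) had edgeR adjusted p-values of 0.352 to 0.945, and the sign of miR-53-5p turned without day 8, at -0.23, and without the replicate block, at -0.04. Without day 8, miR-55-3p was at 0.18 and miR-54-3p at 0.44. With day 8 included, the median over the family was 0.73 and over all miRNAs 0.03. Scaling by total counts moved the median of all miRNAs by 0.45 in this comparison, with 37 called higher and 5 lower against 18 and 12 with TMM, and called 3 members.

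In the same comparison 1 of the 5 tissue markers passed, intestinal miR-60-3p, which fell by 1.05 on the log2 scale in IF (edgeR adjusted p 0.0416). Summed, the markers were 2666 to 58015 CPM in IF and 5517 to 94910 CPM in AL over days 4 to 10. Most of each sum was muscle miR-1-3p, whose own difference of -0.78 did not pass (edgeR adjusted p 0.303). The part of the markers in the difference of miR-51-5p was not tested.

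No member passed the test between CR and AL. The log2 differences ran from -0.39 for miR-53-5p to 0.54 ± 0.36 for miR-51-5p, with a median of 0.14 against 0.08 over all miRNAs, and 0 of 6 passed (edgeR adjusted p 0.473 to 0.974). In this comparison edgeR called 0.0% of the 212 miRNAs, with 39 at an unadjusted p under 0.05, none of them a member. DESeq2 called 21 and limma-voom 0, and neither called a member. CR was above AL on 4 of 4 days for miR-51-5p alone among the members, as for 14.2% of all miRNAs. The median of all miRNAs moved by 0.41 under total counts, which called 15 higher and 0 lower and put miR-53-5p above 0, at 0.03.

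Set against IF, CR had lower fitted levels of all 6 members, and none passed. The differences of CR from IF were -0.89 ± 0.37 for miR-51-5p, -0.82 ± 0.35 for miR-52-5p and -0.77 ± 0.33 for miR-56-3p, each with an edgeR adjusted p of 0.48. These 3 had an unadjusted p under 0.05, as did 8.49% of all miRNAs tested. The others were -0.45 for miR-53-5p, -0.42 for miR-55-3p and -0.05 for miR-54-3p, the last of which turned above 0, at 0.04, without day 8 and under scaling without the top 3. Without day 8, miR-51-5p was at -0.57, miR-52-5p at -0.67, miR-53-5p at -0.36 and miR-55-3p at -0.30. With day 8 included, the family median was -0.61 and that of all miRNAs 0.03. No miRNA was called by edgeR, DESeq2 or limma-voom (0.0% of 212), with 18, 24 and 20 at an unadjusted p under 0.05. CR was below IF on 4 of 4 days for miR-52-5p and miR-53-5p, as for 9.91% of all miRNAs. The 3 diet comparisons share libraries and are not independent of each other.

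The opposite arms of the hairpins, which are usually degraded as the strand left out of Argonaute, were called on day 8 in mir-51 and mir-54. Between day 8 and day 4, 1 of the 5 arms tested rose and 1 fell, where 34.9% of all miRNAs rose and 25.5% fell. Over the 13 libraries the opposite arm held 3.13% of the reads of mir-51 and 6.11% of those of mir-54, but 0.335% or less of those of the other 4 hairpins. The arm miR-51-3p had 781, 159, 11 and 158 reads on days 4, 6, 8 and 10 in IF, 548, 264, 4 and 207 in CR and 201, 53, 9 and 201 in AL, with 179 on AL day 2. In CPM its 3 day 8 libraries were the lowest of all, while those of miR-51-5p were the highest. Against days 4, 6 and 10, day 8 lay wholly below in 12.7% of all miRNAs and wholly above in 19.3%. Between day 8 and day 4 miR-51-3p fell by 5.42 ± 0.70 on the log2 scale (edgeR adjusted p 2.28e-05), in 3 of 3 diets. It was also lower on day 6, by a log2 difference of -2.51 ± 0.58 (edgeR adjusted p 0.00928, or 0.0613 without IF day 6), and on day 10, by -1.75 ± 0.58 (edgeR adjusted p 0.0312). The day 10 call was lost without CR day 10, IF day 4 or IF day 10, at edgeR adjusted p-values of 0.126 to 0.166, and without day 8, at 0.0537. Of all miRNAs, 9.91% were called lower on day 6 and 18.4% on day 10.

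In hairpin mir-54 the opposite arm rose on day 8. This arm, miR-54-5p, had 11, 48, 561 and 109 reads on days 4, 6, 8 and 10 in IF, 99, 67, 204 and 69 in CR and 69, 76, 375 and 97 in AL, with 111 on AL day 2. The day 8 libraries were above all others, and the log2 difference from day 4 was 3.35 ± 0.56 (edgeR adjusted p 0.000147), kept with any of the 12 libraries left out. Against days 4, 6 and 10, 19.3% of all miRNAs were likewise separated upward on day 8. As a share of the hairpin's reads, miR-54-5p was 31.9% to 45.0% on day 8 and 0.773% to 8.71% in the other 10 libraries. For miR-51-3p the shares were 0.0328% to 0.132% on day 8 and 1.43% to 22.1% otherwise. Of the others, miR-56-5p was higher on day 6 than on day 4 (1.92 ± 0.47, edgeR adjusted p 0.0103, or 0.0615 without CR day 6), like miR-56-3p, at no more than 220 reads, and miR-53-3p, with 0 to 15 reads, was too scarce to test. Of all miRNAs, 7.55% were called higher on day 6.

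**Figure D5:**
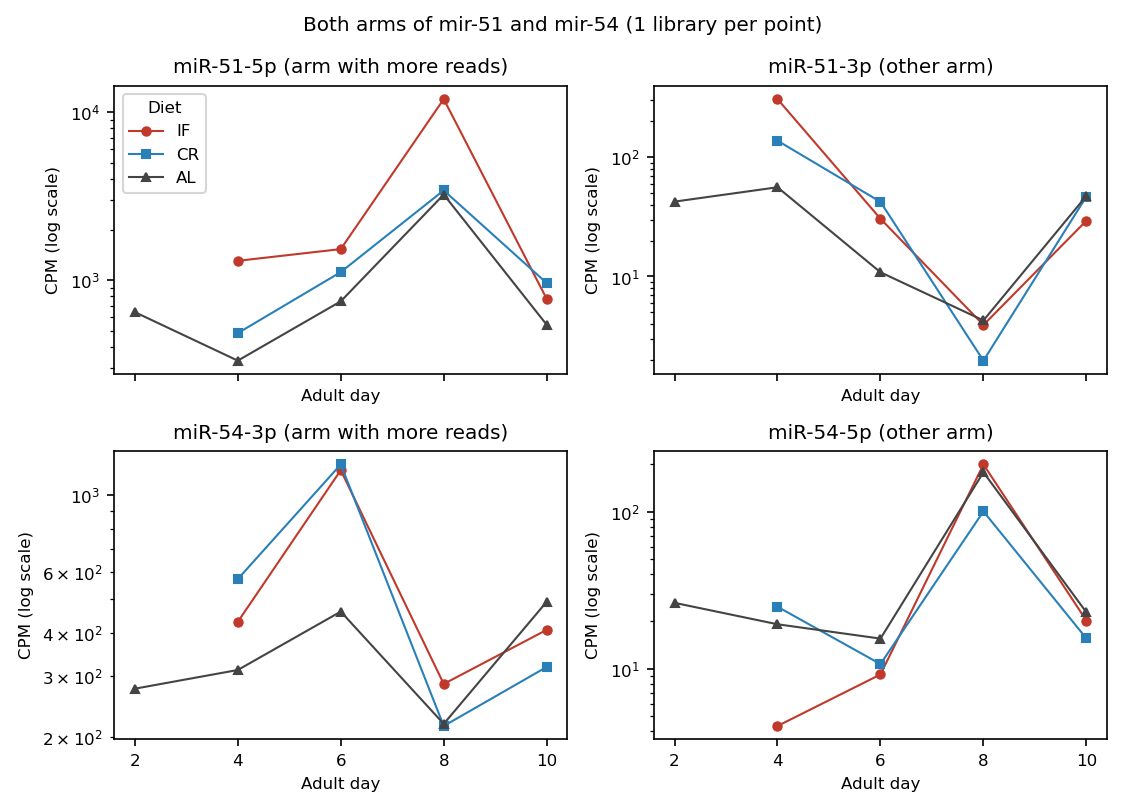
CPM on a log scale against adult day for both arms of mir-51 (top) and mir-54 (bottom), with 1 library per point and 1 line per diet and separate axes for each panel. On day 8 miR-51-5p and miR-54-5p are at their highest and miR-51-3p and miR-54-3p at their lowest in each diet.

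The mir-35 family, which acts with the mir-51 family in the embryo, was compared as the set of 8 main arms of mir-35 to mir-42. It summed to 39.7%, 31.4%, 6.34% and 16.1% of the reads on days 4, 6, 8 and 10 in IF. In CR it summed to 20.2%, 26.2%, 3.30% and 9.60%, and in AL to 11.8%, 15.4%, 1.84% and 6.46%, with 14.8% on AL day 2. Like the mir-51 family it had its smallest share on day 8 in each diet. None of its members was at 0 reads in any library. Between day 8 and day 4, 0 of the 8 rose and 6 fell, where 34.9% of all miRNAs rose and 25.5% fell. Their median log2 difference was -2.55, against -0.80 in the mir-51 family and 0.08 over all miRNAs. Between IF and AL 2 of the 8 rose, miR-37-3p by 2.26 ± 0.35 (edgeR adjusted p 0.00165) and miR-39-3p by 1.07 ± 0.33 (edgeR adjusted p 0.0416), a count that ran from 0 to 4 over the alternative settings. Of all miRNAs, 8.49% were called higher in IF. Whether embryos or oocytes were carried by the worms is not stated in the labels, and the part of this in the levels of the mir-51 family was not tested.

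Of 156 other miRNAs with a mean of at least 10 CPM, those whose log2 level followed the family total most closely over the 13 libraries included 3 members of the mir-35 family. They were miR-42-3p (Pearson r = 0.89, 0.88 without day 8), miR-39-3p (0.84, 0.85) and miR-40-3p (0.84, 0.96), followed by miR-1830-3p (0.75, 0.86) and miR-35-5p (0.74, 0.74). The lowest coefficient was that of miR-255-3p (-0.77, -0.86). The total did not stand for each member alike. With it, miR-52-5p correlated at 0.85, and miR-55-3p and miR-56-3p at 0.84 each. The coefficients of miR-54-3p, miR-53-5p and miR-51-5p with it were 0.61, 0.57 and -0.13. These are descriptions of the same scaled libraries, which share their days and their most abundant miRNAs, and no test was made of them.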

How the data were processed

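Gel-selected small RNA (18 to 30 nt) was sequenced, per the labels' protocols, which mention no molecular identifiers. Each deposited file lists, per the file headers, a raw read count for every mature miRNA and its precursor. Neither the mapping and counting tools, nor the miRNA database, genome build or filters behind these counts are stated in the labels or headers. A mature miRNA listed under several precursors was kept once, with its highest count, which took 447 entries to 434. Wilson intervals (95%) treat reads as independent molecules.

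Tests used the edgeR package (4.0.16, R 4.3.3) on counts scaled by TMM, with factors of 0.475 to 1.63, and a minimum of 10 reads in 4 libraries, which all 6 members and 5 of the 6 opposite arms met. Diet and day both entered as factors, on 12 libraries (days 4 to 10), in two-sided quasi-likelihood tests. For the age slopes day was numeric beside a diet term, on all 13 libraries; diet-specific slopes were compared on 12. Benjamini-Hochberg adjustment ran over the whole table with a threshold of 0.05. The SE was obtained from the log2 difference and the root of F. Correlations used log2 CPM with a prior count of 2. Day served as the replicate block because the labels give it: after subtracting diet means, the 12 same-day pairs correlated at 0.554 to 0.894 and the 36 other pairs at -0.586 to 0.317. Subtracting those means itself pushes the coefficients of the other pairs below 0, so they are no separate ground for the block.

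Hairpin positions are 1-based and come from the Ensembl 115 annotation of WBcel235, in which 247 of 250 precursor names were found. The genes named were the members, their opposite arms, the mir-35 family, tissue markers, the miRNAs most and least like the family total, neighbours and the most abundant miRNAs. The members, lists and tests were chosen with earlier results of these data known. Alternatives were other scalings, no filter, DESeq2 (1.42.0), voom from limma (3.58.1), no block, no diet term, other codings of day, and each library or day 8 left out. Fits were also run on simulated data that held differences put in on purpose and no other effect of day or diet. No result given here rests on that run. Python (3.11.15) with pandas (2.3.3), matplotlib (3.10.9), numpy (2.4.6) and scipy (1.17.1) made tables and plots.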

Additional observations from a re-analysis of the deposited data

Results flagged for a closer look

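In 39 sets of values (each main and opposite arm and the family total, in each diet), 11 had 1 library that stood apart from the rest of its diet by the 95% criterion of Dixon's gap test. The libraries of a set differ in age and are not replicates, and the sets share libraries. The count is therefore a description, with no rate expected by chance to set it against. On day 8, miR-51-5p was at 11948 CPM in IF (774 to 1531 in the other IF libraries) and at 3232 CPM in AL (332 to 749). Also on day 8, miR-54-5p was at 200.03 CPM in IF (4.32 to 20.2), at 100.48 CPM in CR (10.7 to 24.8) and at 178 CPM in AL (15.6 to 26.3). On day 6, miR-54-3p was at 1181 CPM in IF (284 to 430). On the same day miR-56-5p was at 15.3 CPM in IF (2.75 to 4.64), at 35.2 CPM in CR (3.94 to 7.52) and at 35.4 CPM in AL (4.26 to 13.1). On day 4, miR-51-3p was at 307 CPM in IF (3.92 to 30.5) and miR-55-5p at 19.6 CPM in CR (3.20 to 4.29), the last from 78 reads. Of the 11, 9 fall in sets whose libraries of 1 day stood highest in every diet (miR-51-5p and miR-54-5p on day 8, miR-56-5p on day 6 and miR-51-3p on day 4), so they repeat the age differences given above.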

How the results depend on the processing

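Of the members, the day 8 calls of miR-51-5p and miR-52-5p held in every setting and with any 1 library left out; the counts of members called were less stable, and the causes were not tested. Between IF and AL, 3 members were called under total counts and DESeq2, 0 without the replicate block and 0 without day 8, against 1; over all miRNAs the count of 30 was 51 with DESeq2 and 0 without the replicate block. Between CR and AL the count over all miRNAs, 0, was 9 with DESeq2 size factors, 15 with total counts, 2 without the top 3, 22 without the filter, 21 with DESeq2 and 7 without day 8. For day 6, members called were 4 with total counts, 2 without the top 3 and 0 without the diet term, against 1, and all miRNAs called 93 and 22 with the first and the last of these, against 37. For day 8, 5 members were called with DESeq2 size factors and 6 with total counts, without the top 3 and with DESeq2, against 3. For day 10, 0 were called with total counts, without the filter or without the diet term, against 1. The count of age slopes, 29, was 17 with total counts, 65 with DESeq2, 19 with the logarithm of the day and 4 with limma-voom and day as a random block.

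With 1 library left out at a time, members called ranged over 0 to 2 for IF against AL, 1 to 1 for day 6, 2 to 3 for day 8 and 0 to 1 for day 10, and were 0 in the others. All miRNAs called ranged over 7 to 36 for IF against AL, 0 to 13 for CR against AL, 14 to 55 for day 6, 100 to 130 for day 8, 39 to 71 for day 10 and 18 to 31 for age slopes.

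The signs that turned were all of values that had not passed the test, among them -0.48 for miR-52-5p and -0.45 for miR-54-5p on day 6, -0.39 for miR-53-5p between CR and AL and 0.27 per day for the slope of miR-51-5p. Without day 8 they were miR-53-5p between IF and AL (-0.23), miR-52-5p (-0.036) and miR-55-3p (-0.13) between CR and AL, miR-54-3p between CR and IF (0.043) and on day 10 (0.066), and the slopes of miR-51-5p (-0.010) and miR-53-5p (0.0047). Without the replicate block they were miR-53-5p between IF and AL (-0.036), miR-55-3p between CR and AL (-0.11) and miR-54-3p between CR and IF (0.016). Under total counts they were miR-53-5p between CR and AL (0.032), miR-52-5p (0.32), miR-53-5p (0.50) and miR-54-5p (0.31) on day 6, and miR-53-5p (0.065) and miR-54-3p (0.25) on day 10. Without the top 3, miR-54-3p was 0.042 between CR and IF and 0.082 on day 10, and 0.088 on day 10 without the filter. On day 10 miR-56-3p was -0.073 with DESeq2 size factors and with DESeq2, and -0.026 without the diet term. With 1 library left out, ranges that crossed 0 were -0.16 to 0.38 for miR-53-5p between IF and AL, -0.10 to 0.37 for miR-52-5p and -0.15 to 0.41 for miR-55-3p between CR and AL, -0.30 to 0.26 for miR-54-3p between CR and IF, -0.95 to 0.28 for miR-54-5p on day 6, and -0.13 to 0.0024 for the slope of miR-53-5p. On day 10 they were -0.62 to 0.094 for miR-53-5p, -0.47 to 0.28 for miR-54-3p, -0.20 to 0.32 for miR-56-3p and -0.23 to 1.02 for miR-54-5p. With 1 library per diet and day, no test within a day is possible, and arms with few reads are limited by depth.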

Other observations

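The opposite arm of mir-52 had 17 reads in IF day 4, the library in which miR-52-5p was at its highest level, 31894 CPM, and 37 to 304 reads in the other 12. Per read of miR-52-3p there were 4779 reads of miR-52-5p in that library and 112 to 158 on day 8. The opposite arm of mir-55 had 78 reads in CR day 4 and 0 to 28 in the others.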
